A study of Mus musculus with 4 samples.

Results

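Transcript levels in a teratoma and in an embryoid body, both grown from control mouse embryonic stem cells, were compared gene by gene. Embryonic stem cells can form every tissue of the body. As an embryoid body, a floating aggregate, they pass through the first lineage decisions, with yolk-sac-like endoderm, primitive red cells and beating heart muscle among the products. As a teratoma, a tumour grown in a host mouse, they have weeks to form differentiated tissues of all germ layers, mixed with vessels and immune cells of the host.

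The control cells are labelled F/F, and the other cells of the series lack Snai1, a repressor of epithelial genes. The control embryoid body was formed in hanging drops, moved to suspension in a medium for undirected differentiation, and sampled on day 5. For the control teratoma, F/F cells were injected subcutaneously at the hind limbs of male nude mice that were 6 weeks old, and the tumour was taken at week 6. Knockout cells gave an embryoid body and a teratoma in the same way, so all 4 samples derive from embryonic stem cells and both teratomas grew in nude hosts. Nude mice lack mature T cells and keep B cells, natural killer cells and myeloid cells. Embryoid body RNA was purified on RNeasy columns and teratoma RNA with Trizol, and 250 ng of each was amplified and hybridised to an Affymetrix mouse array. The labels do not say whether an RNA came from 1 culture or tumour or from several, or whether the cells of each genotype are 1 clone.

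Each of the 4 groups had 1 array, 2 of them control, so nothing below has a replicate check and no test was made. Culture time, host and RNA extraction differ together between the sample kinds, and their parts cannot be told apart. Nor can more cells of a type be told apart from more RNA per cell. All 18193 genes named by a probe set of their own were used, out of 18193 in the series. Values are RMA log2 values. The median of an array's non-control probe sets served as its floor, 4.71 for the control embryoid body and 5.08 for the control teratoma. Of these genes, 12956 (71.2%) reached the floor on 1 control array or both and are called measured. A difference is the teratoma's value minus the embryoid body's, on the log2 scale. Where 1 array lay below its floor, the difference was taken from the floor and is given as a bound, "at least". Genes at least 2-fold apart are called higher or lower in the teratoma.

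The arrays of 1 sample kind resembled each other more than those of different kinds. Pearson's correlation across all probe sets was 0.881 between the control embryoid body and the control teratoma, against 0.982 between the embryoid bodies and 0.985 between the teratomas. The signal at the 3' end minus that at the 5' end of Gapdh, a measure of how intact the RNA and its labelled copies are, was 0.17 in the control embryoid body and 0.65 in the control teratoma. For Actb it was 0.38 and 1.03. The 3' probe set of 18S ribosomal RNA read 11.7 and 13.3, and its 5' probe set 13.3 and 13.6. The part of these differences in the gene values was not tested. Snai1 itself read 4.78 in the control embryoid body, 3.59 in the control teratoma, 3.45 in the knockout embryoid body and 3.44 in the knockout teratoma, so it stood above the floor only in the control embryoid body, by a narrow margin.

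Of the 12956 measured genes, 2098 (16.2%) were higher and 2456 (19%) lower in the control teratoma. The size of the differences was lopsided: 423 genes were 8-fold higher and 94 were 8-fold lower, and 68 and 8 passed 32-fold. Bounds made up 207 and 35 of those at 8-fold, and 41 and 7 of those at 32-fold. The embryoid body's floor was the lower of the 2. From the same value, a higher bound therefore reaches further than a lower one. The median difference was -0.18 over measured genes and -0.28 over the 10826 genes above the floor on both arrays. The split of calls depends on this shift. With differences centred on that median, 2708 genes were higher and 1550 lower, so that 63.6% of calls were higher, against 46.1% without centring. Centred on ribosomal protein genes, a shift of -0.41, 71.1% of calls were higher.

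Probe sets of the same gene give the only spread within an array. Their differences had a pooled SD of 0.66 over 4286 genes with more than 1 probe set above the floor on both arrays. Where a called gene had another measured probe set, all others had the same sign for 722 of 888 higher genes (81.3%) and 796 of 1056 lower genes (75.4%). Another probe set also passed 2-fold for 572 (64.4%) and 588 (55.7%) of them. The other probe sets include ones above the floor on 1 array only, where the floor rule itself sets the sign. These shares are therefore no independent check of the calls.

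**Figure D1:**
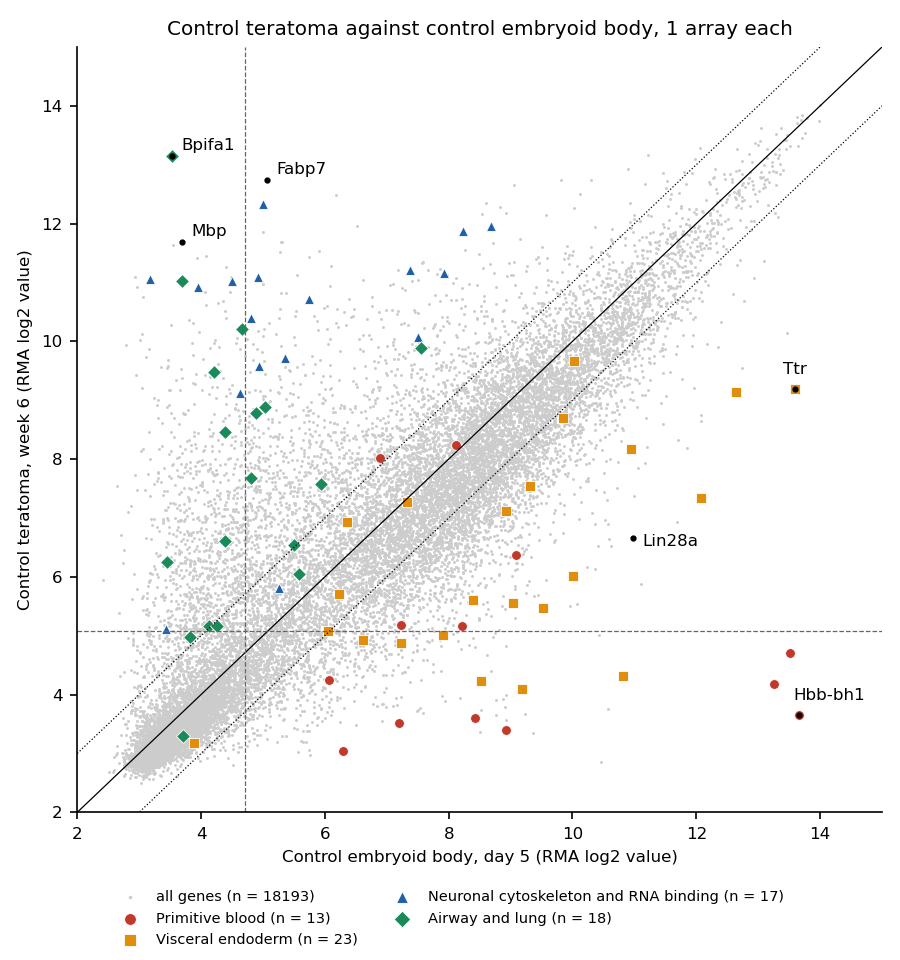
Each point is 1 gene, with its RMA log2 value in the control embryoid body on the x axis and in the control teratoma on the y axis; colours mark 4 gene lists, dashed lines the array floors, the solid line equality and dotted lines 2-fold. Neuronal and airway genes lie at the upper left, with Bpifa1 at 3.53 and 13.16, and embryonic globins at the lower right, with Hbb-bh1 at 13.66 and 3.66.

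Among genes above the floor on both arrays, the largest positive difference was that of Fabp7, a fatty acid binding protein of radial glia. It read 5.06 in the control embryoid body, 5.38 in the knockout embryoid body, 12.73 in the control teratoma and 12.55 in the knockout teratoma. Both teratomas thus stood far above both embryoid bodies, and the control difference was 204-fold. Stmn3, a tubulin-binding protein of neurons, was 161-fold higher (5.00 and 12.33), and Sparcl1, a matrix protein secreted by astrocytes, 84.6-fold higher (5.29 and 11.70). Several others of the 20 largest were neuronal too, among them Rtn1, Tubb3, Elavl4, Gpm6a, Celf4, Dclk1, Stmn4, Pak3 and Cdk5r1, with differences from 5.25 to 6.31.

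The highest bounds came from several tissues. Bpifa1, a protein secreted onto the surface of the upper airway, was at least 349-fold higher, at 3.53, 5.68, 13.16 and 12.44 in the control embryoid body, knockout embryoid body, control teratoma and knockout teratoma. Mbp, a structural protein of myelin, was at least 127-fold higher (3.69 and 11.69) by its brightest probe set. The 4 of its 8 probe sets above the floor on both arrays gave smaller differences, from 0.35 to 3.01, and the mean over its probe sets gave 3.94. Cym, the milk-clotting stomach protease chymosin, was at least 122-fold higher (3.55 and 11.64). Myh1, an adult fast myosin heavy chain of skeletal muscle, was at least 74.5-fold higher (2.97 and 10.93).

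The largest negative difference among genes above the floor on both arrays was that of S100g, an intracellular calcium-binding protein. S100g was 37.5-fold lower in the control teratoma (11.10 and 5.87), and Car4, a membrane carbonic anhydrase, 27.0-fold lower (11.68 and 6.93). Rbp4, the plasma carrier of retinol, was 26.6-fold lower (12.08 and 7.34), and Hand2, a transcription factor of the developing heart and limb, 23.2-fold lower (10.08 and 5.54). The 3 lowest bounds were the embryonic globins, treated below with the blood genes. Phlda2, an imprinted growth-restraining gene of the placenta and yolk sac, had a bound of -5.49 (10.57 and 3.75), and Tdo2, the first enzyme of tryptophan breakdown, was at least 41.7-fold lower (10.46 and 2.86).

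**Figure D2:**
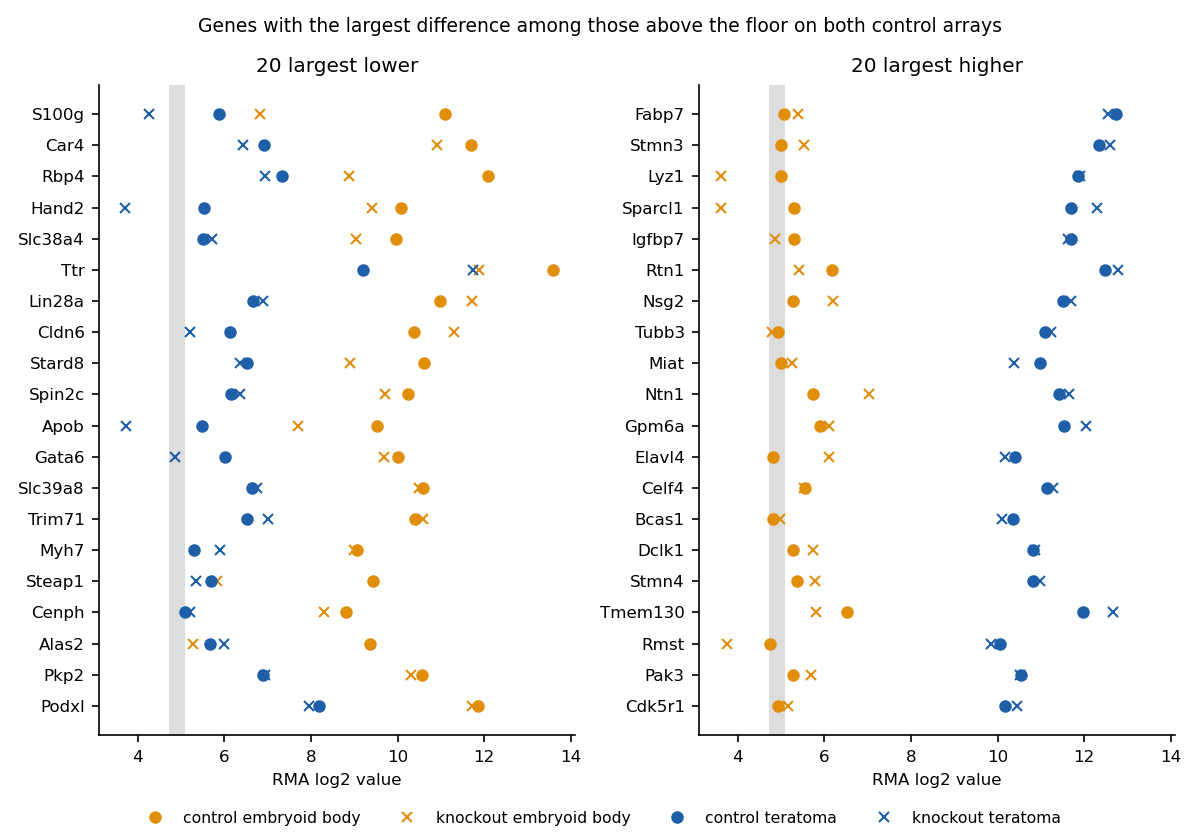
RMA log2 values on all 4 arrays for the 20 genes with the largest lower (left) and higher (right) difference among genes above the floor on both control arrays; orange marks embryoid bodies, blue teratomas, circles control, crosses knockout, and the grey band the 2 control floors. Circle and cross of a kind lie within 2 log2 units for all 20 higher genes, and further apart for S100g, Rbp4, Ttr, Steap1 and Alas2 among the lower ones, with Ttr at 11.88 and 11.74 in the knockout pair.

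The promoters of the genes with extreme bounds were read next. RefSeq start sites (build GRCm38.p6) were matched for 26 of the 30 genes named as bounds. The TATA box, the site at which the TATA-binding protein positions the start of transcription, was searched as TATAAA on the sense strand, starting 40 to 20 bases before the gene start. It was present in 7 of these 26 (26.9%), against 600 of 27025 promoters in the whole table (2.22%). These genes were picked for their extreme bounds. In wider sets the share was 1.59% of measured genes with a promoter and 1.10% of genes 2-fold lower. Of genes 2-fold and 8-fold higher with a promoter, 3.37% and 5.57% held it, and of genes 8-fold lower 4.62% (3 of 65). Only 76.3%, 76.4% and 69.1% of the genes in these sets had a promoter in the table, too few for a comparison. This is a count of letters and says nothing of binding. The 80 bases before the start of 5 of the 7 are shown 5′ to 3′ because they span the largest differences in both directions, with TATAAA in capitals. They are Bpifa1 at chr2:154142800-154142879 (+ strand), Cym at chr3:107221733-107221812 (- strand), Reg3g, an antibacterial lectin of gut epithelium, at chr6:78468875-78468954 (- strand), Myh1 at chr11:67200022-67200101 (+ strand) and Hba-x, the embryonic alpha-like globin, at chr11:32276520-32276599 (+ strand).
Bpifa1: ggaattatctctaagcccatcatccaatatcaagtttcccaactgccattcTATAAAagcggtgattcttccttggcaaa
Cym: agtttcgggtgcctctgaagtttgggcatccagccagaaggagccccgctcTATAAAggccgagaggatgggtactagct
Reg3g: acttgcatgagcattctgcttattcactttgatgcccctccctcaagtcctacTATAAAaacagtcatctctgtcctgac
Myh1: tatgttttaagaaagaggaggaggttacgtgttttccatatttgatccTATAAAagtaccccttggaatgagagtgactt
Hba-x: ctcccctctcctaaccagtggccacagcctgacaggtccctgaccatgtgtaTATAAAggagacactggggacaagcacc

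In these 5 the motif begins 27 to 32 bases before the start. It stands before genes high in the teratoma and before Hba-x, which was high in the embryoid body. Those of the 7 not shown, Phlda2 and Nepn, had bounds of -5.49 and -3.84, so they too were high in the embryoid body.

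In all, 67 lists of marker and pathway genes were read, holding 996 genes on the array; some genes stand in more than 1 list. The sample labels were read against these markers: many yolk sac and primitive blood genes were above the floor in the control embryoid body, and many genes of brain, skeletal muscle, stomach and airway in the control teratoma. Not every member was. Myod1, Myf5, Myf6, Pgc, Atp4a, Sftpa1 and Sftpc, for example, lay below the floor in the control teratoma. A list is described by its measured members called higher or lower and by the median of its differences, to be set against 16.2% higher, 19% lower and a median of -0.18 over all measured genes. A member above the floor on 1 array only is measured through that array, so its bound cannot point the other way. Such bounds include 13 of 24 measured skeletal muscle, 11 of 22 myeloid, 9 of 16 airway and 8 of 13 primitive blood genes.

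Most genes of embryonic blood were lower in the control teratoma. Primitive red cells are the first blood cells of the embryo, arise in the yolk sac and carry their own globins. Of 13 measured genes of this list, 10 were lower and 1 higher, with a median of -2.72. Hbb-bh1, an embryonic beta-like globin, read 13.66 in the control embryoid body, 10.20 in the knockout embryoid body, 3.66 in the control teratoma and 3.36 in the knockout teratoma. It was above the floor on both embryoid body arrays and below it on both teratoma arrays, and the control difference was at least 383-fold. Hba-x, the gene whose promoter is shown above, was at least 345-fold lower (13.51 and 4.71), and the second embryonic beta-like globin Hbb-y at least 288-fold lower (13.25 and 4.18). For the red cell transcription factors Nfe2 and Klf1 the difference was at least 14.3-fold and 10.2-fold.

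Adult red cell genes were mostly not higher. Of 7 measured genes, 3 were lower and 1 higher. The adult globin Hba-a1 lay below the floor on both control arrays, at 3.56 and 3.40, and Hbb-b2 read 5.72 and 5.21. Alas2, which starts heme synthesis in red cells, was 13.0-fold lower (9.37 and 5.68). Adult globin probe sets that name several genes were not used here. Platelet genes divided, with 4 of 8 lower, 2 higher and a median of -0.86. Itgb3, a fibrinogen receptor subunit, differed by -3.40 and Pf4, a platelet chemokine, by -2.65, while Ppbp, another platelet chemokine, differed by at least 1.46.

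The visceral endoderm, the layer that feeds the early embryo and secretes serum proteins before the liver does, was the lineage list with the most genes lower in the teratoma. Of 22 measured members, 17 were lower and 0 higher, and the median was -2.79. Apom, a lipoprotein component, was at least 53.5-fold lower (10.82 and 4.31). Ttr, the thyroxine carrier, was 21.2-fold lower in the control teratoma (13.60 and 9.19), Apob, the core protein of lipoproteins, 16.6-fold lower (9.52 and 5.47), and Fgb, a fibrinogen chain, at least 17.2-fold lower. Gata6, a transcription factor that specifies this endoderm, was 15.9-fold lower, with 6.01 in the control teratoma. Of the 10 measured endoderm transcription factors, which share members with this list, 7 were lower and 2 higher, with a median of -2.61. Gata4, Hhex, Hnf4a, Cdx2 and Foxa3 were among the lower, with differences or bounds from -2.42 to -3.44. Cxcr4, a receptor on migrating endoderm, was one of the 2 higher, with a difference of 1.21.

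Heart genes were mostly lower. Of 18 measured, 11 were lower and 1 higher, and the median was -1.32. After Hand2, the largest differences were those of Tbx20, a cardiac transcription factor (at least 17.8-fold lower), Myh7, a heavy chain of heart and slow muscle (13.6-fold), Myl3 (at least 12.7-fold) and Myl7, the atrial light chain (9.17-fold). Tnnc1, the troponin C of heart and slow muscle, was 6.73-fold lower (10.51 and 7.76). The one higher was Tnni3, the adult cardiac troponin I, by at least 2.67-fold.

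Skeletal muscle went the opposite way, with 19 of 24 measured genes higher, 1 lower and a median of 2.72. Tnnc2, the fast troponin C, was at least 70.3-fold higher (4.47 and 10.84), Myl1, a fast light chain, 30.3-fold (5.51 and 10.44), Acta1, skeletal actin, 13.6-fold (7.56 and 11.33), and the perinatal heavy chain Myh8 at least 15.9-fold (3.57 and 8.71). The one lower was Tnni1, the slow troponin I, which the embryonic heart also makes (10.51 and 7.44). The tumours grew at the hind limb, and whether host muscle was in the sample was not tested.

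Nervous tissue gave the 2 highest medians, those of neurons and astrocytes. Of 17 genes of the neuronal cytoskeleton and neuronal RNA binding, 15 were higher and 0 lower, with a median of 4.42. Besides Stmn3, they included Tubb3, the neuronal tubulin, 71.6-fold higher (4.93 and 11.09), and the microtubule proteins Map2, Dcx and Mapt, higher by at least 81.6-fold, 74.5-fold and 79.8-fold. The Mapt bound comes from its brightest probe set, and the 1 probe set above the floor on both arrays gave a smaller difference, 2.52. Synaptic genes were higher for 16 of 17, with a median of 2.15. Syt1, the calcium sensor of synaptic vesicles, was 33.8-fold higher (5.01 and 10.09), and Snap25, part of the fusion machinery, at least 28.7-fold (3.46 and 9.55).

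Genes for both excitatory and inhibitory transmission were among the 17 of 21 measured transmitter and channel genes that were higher. Of the 21, 14 were bounds, and 25 genes of the list were on the array. Slc17a6, which loads glutamate into vesicles, was at least 32.7-fold higher (3.11 and 9.74), and Gad1, which makes the inhibitory transmitter GABA, at least 22.1-fold (3.66 and 9.17). The endocrine list, with 5 of 7 higher, was led by the granule proteins Scg2, at least 104-fold higher, and Chgb, at least 70.1-fold, which neurons also make. Of its 10 genes on the array 7 were measured, 5 of them as bounds. The insulin gene Ins2 read 5.21 and 4.86.

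Glial genes were higher too. Of 12 astrocyte genes, 10 were higher, with a median of 3.02, among them the water channel Aqp4 (at least 65.8-fold), the glutamate transporter Slc1a2 (at least 48.3-fold) and the filament Gfap (at least 38.3-fold). Of 11 oligodendrocyte genes on the array, 8 were measured and all 8 were higher, with a median of 2.36. Of these, 5 were above the floor only in the teratoma, so they could not have come out lower. Olig1, a transcription factor of that lineage, was at least 33.3-fold higher (3.88 and 9.77) and Cnp, a myelin enzyme, 7.78-fold (8.11 and 11.07). Of 18 neural progenitor genes on the array, 11 were measured, 6 of them as bounds. Of the 11, 8 were higher, with a median of 1.83, Fabp7 leading and Neurog2, Six3 and Sox1 following with bounds from 2.14 to 2.49. Neurog1, Emx2, Rax, En1, En2, Pax7 and Gbx2 lay below the floor on both control arrays. Of the retina and lens list, by contrast, only 2 of 11 genes on the array were measured and 0 were called.

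Epithelial genes differed in direction by the kind of epithelium. The simple epithelium list, which the early embryo and visceral endoderm share, had 11 of 23 measured genes lower and 3 higher, with a median of -0.96. Cldn6, a tight junction protein of embryonic epithelium, was 18.9-fold lower (10.37 and 6.13) and Krt18, a simple keratin, 9.10-fold lower (12.74 and 9.55). The stratified epithelium list had 12 of 21 higher and 0 lower, with a median of 1.14. Krt15, a keratin of basal cells, was 31.6-fold higher (4.90 and 9.88), Krt4 and Krt13, the pair of wet-surface epithelia such as the oesophagus, 30.3-fold and 9.80-fold, and Krtdap, of differentiating keratinocytes, at least 5.50-fold. Krt6a differed by 3.81 (4.71 and 8.52), but it has a close relative, Krt6b, from which a probe set may not separate it.

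Airway genes were higher for 13 of 16 measured, with 0 lower and a median of 2.61. Besides Bpifa1, the higher genes included Cyp2f2, an oxidising enzyme of club cells (at least 79.6-fold), the iron-binding defence protein Ltf (at least 45.1-fold), Scgb3a2, a secretoglobin of airway cells (at least 27.2-fold), Lypd2 (4.88 and 8.78), and Muc5b, a mucin (14.4-fold). Another secretoglobin of the list, Scgb1a1, stood near the floor, with a bound of 1.38-fold (4.13 and 5.17). Sftpa1 and Sftpc lay below the floor on both control arrays. Motile cilia, which sweep mucus and fluid, had 15 of 19 genes higher, 0 lower and a median of 1.36. Of the 19 differences, 13 were bounds. Dynlrb2, a dynein light chain, was at least 39.9-fold higher (3.01 and 10.03), Tppp3 16.9-fold and Foxj1, the transcription factor that directs the making of motile cilia, 5.66-fold (5.23 and 7.73).

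Stomach genes were higher for 7 of 10 measured, with 0 lower and a median of 2.57. Of 13 on the array, Pgc, Atp4a and Cblif lay below the floor on both control arrays. Atp4b read 5.47 and 5.54, and Psca differed by -0.55. Gkn2 and Gkn1, gastrokines of the stomach surface, were higher by at least 4.91 and 4.14 log2 units, and the mucus-associated trefoil peptides Tff2 and Tff1 14.8-fold and 10.1-fold. The intestine list was split, with 7 of 13 higher and 2 lower. Reg3g was at least 77.5-fold higher (4.50 and 10.99) and Reg3b at least 18.5-fold; they are close relatives and lie near each other on chromosome 6. Tff3, a trefoil peptide, was 12.4-fold lower (9.58 and 5.94), and Vil1, a protein of microvilli, at least 5.51-fold lower.

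Some tissues were hardly represented. Of 11 hepatocyte genes on the array 3 were measured, of 8 kidney genes 2, and of 10 exocrine pancreas genes 4. In the pancreas list none was called, and in the liver and kidney lists 1 was higher, Alb, the serum albumin of liver, by at least 2.42-fold, and 2 were lower, Serpina1b and Six2. Of 12 fat genes on the array, 5 were measured and 0 called.

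Connective tissue genes were mixed. Collagen and matrix genes were higher for 12 of 25 and lower for 4, with a median of 0.94. Bgn, a proteoglycan, was 37.0-fold higher (5.01 and 10.22), Col6a2, a chain of collagen VI, 15.9-fold (6.76 and 10.75), and Dcn, a proteoglycan that binds collagen fibrils, 5.90-fold (9.58 and 12.14). Of the fibroblast list, 8 of 17 were higher and 3 lower. Twist2, a transcription factor of mesenchyme, was 9.11-fold lower (8.49 and 5.30), and Dpt and Thy1 by at least 9.01-fold and 8.31-fold higher. Snai2, the relative of Snai1, was 4.47-fold lower (10.59 and 8.43), while Zeb1 and Zeb2, which repress the same epithelial genes, were 3.15-fold and 2.91-fold higher. Smooth muscle genes divided as well: Myh11, its defining myosin, was at least 12.1-fold higher (3.77 and 8.30) and Mylk 19.8-fold, but Acta2, smooth muscle actin, was 2.51-fold lower (12.71 and 11.38). Endothelial genes had 4 of 17 lower and 1 higher, with a median of -0.50. Tek, an angiopoietin receptor, was 9.69-fold lower, and the junction protein Cldn5 2.50-fold higher.

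Myeloid genes were higher for 18 of 22 measured, with 0 lower and a median of 1.95. Lyz1 and Lyz2, the lysozymes of macrophages and gut crypts, were 115-fold and 37.0-fold higher; Lyz1 read 5.00, 3.62, 11.85 and 11.90 in the control embryoid body, knockout embryoid body, control teratoma and knockout teratoma. They are near-identical in sequence, so their probe sets may not separate them. Of the complement genes that macrophages make, C1qa and C1qb differed by at least 4.32 and 3.47, and C1qc was above the floor only in the teratoma (3.63 and 7.71). The 1 C1qb probe set above the floor on both control arrays gave 1.09. Of 27 members on the array, 5 lay below the floor on both control arrays. Lymphocyte lists were nearly empty: of 8 B cell genes 1 was measured, Ighm at 4.42 and 5.11, and of 14 T and natural killer cell genes 3, with 0 called in either list. The knockout teratoma differed here, with Ighm at 11.25 and 5 of 5 measured B cell genes higher than in its embryoid body.

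Antigen presentation followed the myeloid genes in direction. Class II genes were higher for 4 of 6, led by H2-Eb1, 6.44-fold (4.95 and 7.64), and H2-Aa, at least 5.89-fold. Class I genes were higher for 5 of 10 and lower for 0, with a median of 1.02. They included Psmb8, a subunit of the immunoproteasome, 4.68-fold (4.96 and 7.19), and the class I heavy chain H2-D1, 4.32-fold (8.57 and 10.69) by the probe set used and from -0.11 to 2.14 on the log2 scale over the 4 probe sets above the floor on both arrays. Interferon-stimulated genes were higher for 10 of 19, with 0 lower. Iigp1 and Gbp2, GTPases that interferon gamma induces, were 16.3-fold and 10.8-fold higher. Whether these transcripts came from host cells or from the injected cells was not tested.

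Most genes of cell division were lower in the control teratoma. Of 22 DNA replication genes, 17 were lower and 0 higher, with a median of -1.46, and all 22 differences were below 0. Cdc6, which loads the replicative helicase, was 6.90-fold lower (8.82 and 6.03), and the helicase subunit Mcm4 3.69-fold lower (10.71 and 8.83). Of 21 mitosis genes, 18 were lower and 0 higher, with a median of -1.65. Kif20a, a kinesin of late mitosis, was 6.52-fold lower (9.19 and 6.49) and the spindle kinase Aurka 5.95-fold lower (8.93 and 6.35). Ribosome biogenesis genes were lower for 11 of 16, with a median of -1.20 and 0 higher. Genes of the respiratory chain stayed near the centre, with 0 of 19 called and a range from -0.71 to 0.26. Their median, -0.20, was 0.08 once differences were centred on the median gene, so it has no direction of its own. Of 7 inhibitors of cyclin-dependent kinases, which hold back the cycle, 1 was higher and 2 lower. Cdkn2c was 2.61-fold higher (6.27 and 7.65), Cdkn1c 10.8-fold lower (12.07 and 8.64) and Cdkn2a at least 2.25-fold lower (6.25 and 3.54). Cdkn1a, Cdkn1b, Cdkn2b and Cdkn2d differed by less than 2-fold, from -0.39 to 0.01.

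Lin28a and its partners formed the lowest list. Lin28a blocks the let-7 microRNAs, which in turn hold down Hmga2, the Igf2bp genes and Trim71 once development advances. Lin28a read 10.98, 11.72, 6.67 and 6.90 in the control embryoid body, knockout embryoid body, control teratoma and knockout teratoma. Both embryoid bodies stood above both teratomas by more than 4 log2 units, and the control difference was 19.8-fold. Hmga2, an architectural chromatin protein, differed by -3.33 (12.07 and 8.75). The RNA-binding proteins Igf2bp1 and Igf2bp3 were 5.99-fold and 3.87-fold lower, and Trim71 14.6-fold (10.40 and 6.53). Of 6 measured members of the fetal list, which does not hold Trim71, 5 were lower and 0 higher, with a median of -2.95.

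Imprinted genes, expressed from 1 parental copy, had no common direction. Of 17 imprinted genes, 6 were lower and 3 higher. The maternally expressed growth inhibitors Phlda2, Cdkn1c (10.8-fold), Grb10 (6.73-fold) and Igf2r (5.41-fold) were lower, and so was the paternally expressed growth factor Igf2 of the fetal list, with a difference of -3.33 (13.47 and 10.14). Meg3, a noncoding RNA that neurons also make, was 3.86-fold higher (11.22 and 13.17). Dlk1 differed by -2.99 at 1 probe set and 0.78 at another, so its direction is open to the choice of probe set.

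Pluripotency genes did not act as 1 group. Of 20 measured, 9 were lower and 2 higher, with a median of -0.60. Pou5f1, the central pluripotency factor, was 4.54-fold lower (8.40 and 6.22) and Sall4 6.92-fold lower (10.74 and 7.95). Sox2, which neural progenitors also use, was 3.68-fold higher (9.07 and 10.95), and Klf5, also an epithelial factor, 3.98-fold (7.53 and 9.52). Dnmt3b, the de novo methyltransferase of the early embryo, was 4.93-fold lower (10.21 and 7.91), and Tet2, which oxidises methylated cytosine, 5.26-fold higher (6.20 and 8.60). Of the primitive streak genes, 8 of 16 were measured, 3 were lower and 0 higher. Of 33 Hox genes, which give cells their position along the body axis, 15 were measured, 6 were lower and 2 higher. Hoxc8, Hoxc10, Hoxb6, Hoxb4, Hoxc9 and Hoxd9 were lower, with differences or bounds from -1.18 to -3.60. Hoxc4 was higher by 1.34 and Hoxa5 by at least 2.43, although the other probe set of Hoxa5 gave -0.67.

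Among signalling genes the BMP list stood lowest. Of 15 measured, 9 were lower and 2 higher, with a median of -1.59. The pathway antagonist Bambi was 11.1-fold lower (10.37 and 6.89), the inhibitory Smad gene Smad6 9.14-fold (8.64 and 5.45), and the ligand Bmp4 7.28-fold (10.14 and 7.27). Id4 ran against the list, 10.3-fold higher (7.86 and 11.23); it is the Id gene most used in the nervous system. Of 9 measured retinoic acid genes, 2 were higher and 2 lower. Cyp26a1, which degrades retinoic acid in the early embryo, was 7.79-fold lower (9.10 and 6.14), while Cyp26b1, another degrading enzyme, was 2.88-fold higher (4.78 and 6.31). Aldh1a1, which helps make retinoic acid, was at least 55.8-fold higher (4.38 and 10.51). Wnt target and FGF feedback genes had medians of 0.46 and -0.37, with 3 of 11 and 1 of 10 called.

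**Figure D3:**
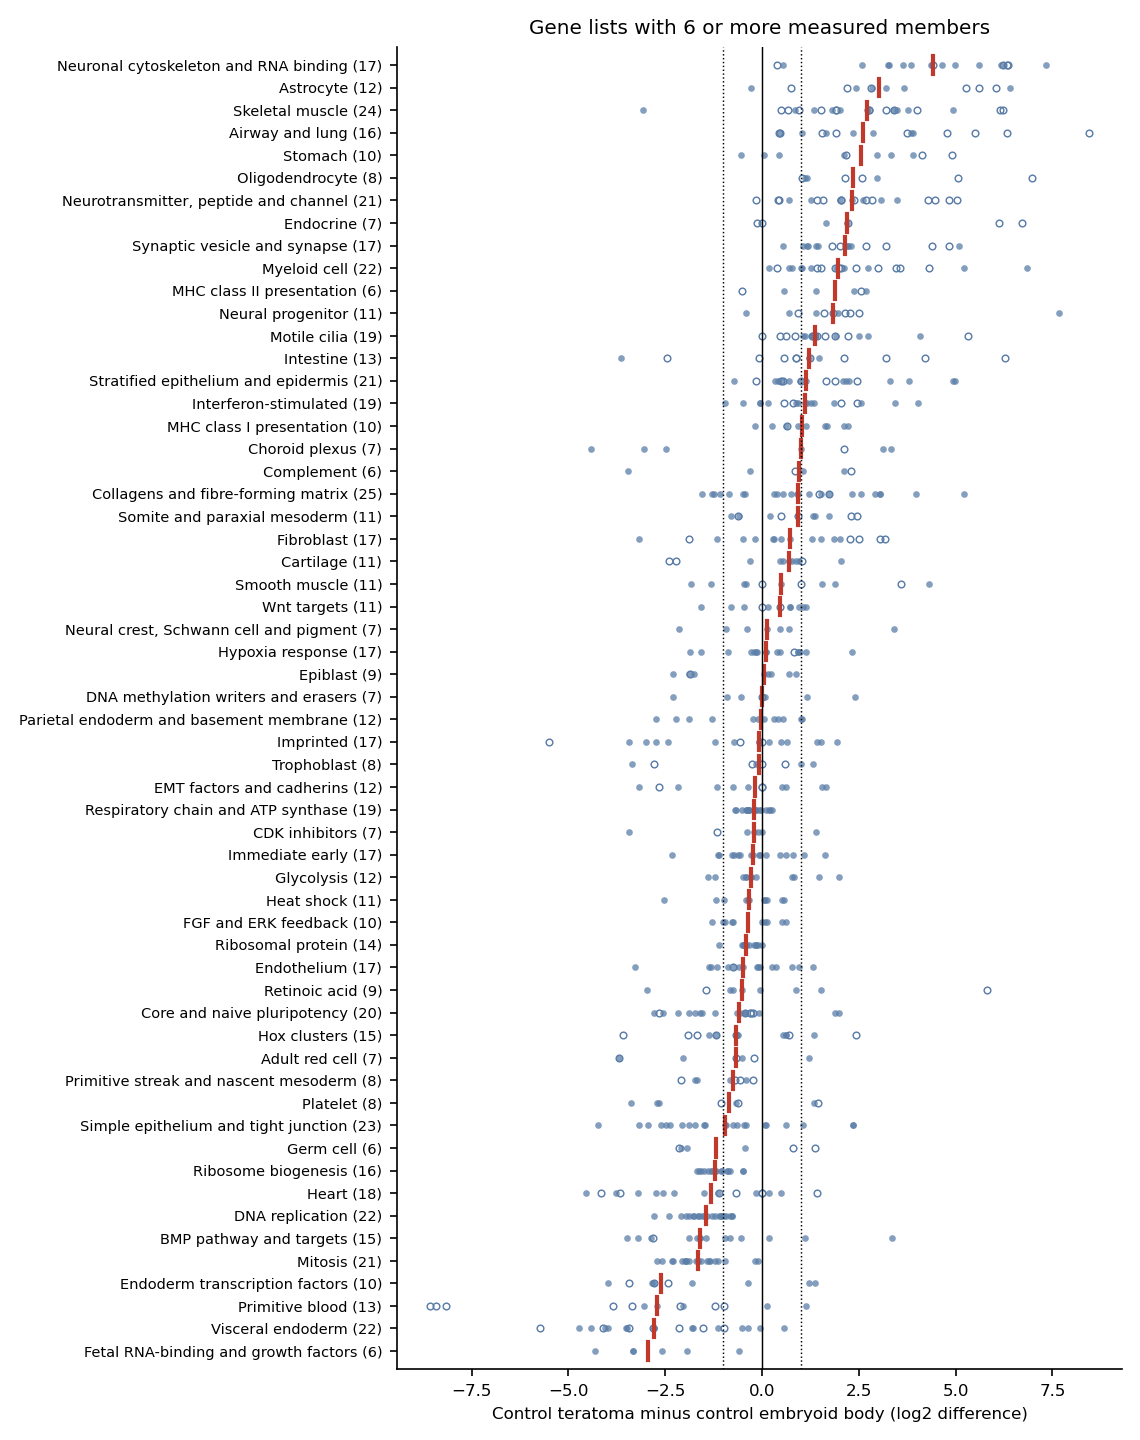
Each row is a list with 6 or more measured genes (number in brackets); each dot is 1 gene's log2 difference, control teratoma minus control embryoid body, open where it is a bound, and the red bar is the list's median. Dotted lines mark 2-fold. Neuronal genes stand at the top with a median of 4.42 and fetal RNA-binding genes at the bottom with -2.95.

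Pairs of an early or general gene and a late or tissue-specific counterpart were set side by side. Most pairs are related genes, and Pdgfra with Mbp and Dcx with Rbfox3 are markers of an earlier and a later stage of a cell type. Pdgfra also stands in the fibroblast list, so its values here are not particular to oligodendrocyte progenitors. Tubb5 stands in 2 pairs. Of 27 pairs, both genes had a probe set of their own in 21 and were measured in 18. The order of the differences is known for 15 of the 18, and the late form's was the higher in 14 of these. Several late forms, such as Tubb3, Gfap, Mbp, Krt5 and Krt14, are also members of lists described above. The tally of pairs is therefore not separate from those lists. For Myh3 with Myh1, Dcx with Rbfox3 and Ckb with Ckm, bounds leave the order unknown. The late form was at least 2-fold higher in 13 and 2-fold lower in 1, while the early form was at least 2-fold lower in 6 and at least 2-fold higher in 3.

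The simple keratins Krt8 and Krt18 differed by -2.08 and -3.19, and their stratified counterparts Krt5 and Krt14 by 2.18 and 2.10. Slc12a2, the chloride importer of young neurons, differed by 0.16, and Slc12a5, the exporter of mature neurons, by 4.84 (4.98 and 9.81). General tubulin Tubb5 differed by 0.34 against 6.16 for neuronal Tubb3, and the progenitor filament Nes by 0.69 against at least 5.26 for Gfap. In muscle, embryonic Myh3 was at least 3.40 higher and adult Myh1 at least 6.22. Of the methyltransferases, Dnmt3b differed by -2.30 and Dnmt3a by 0.08.

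Among the measured pairs of known order, Cox7a2 with Cox7a1 ran the other way. Cox7a1, the muscle form of a cytochrome oxidase subunit, differed by -1.28 and the general form Cox7a2 by -0.07. In the pairs of unknown order, the brain-type creatine kinase Ckb differed by 3.28 and the muscle-type Ckm by at least 2.76. Dcx, of young neurons, differed by at least 6.22 and Rbfox3, of mature ones, by at least 4.42. The 1 Rbfox3 probe set above the floor on both arrays gave 1.64. Grin2b, the early NMDA receptor subunit, was at least 2.03 higher, and its mature counterpart Grin2a was under the floor in both samples, at 3.35 and 3.01.

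**Figure D4:**
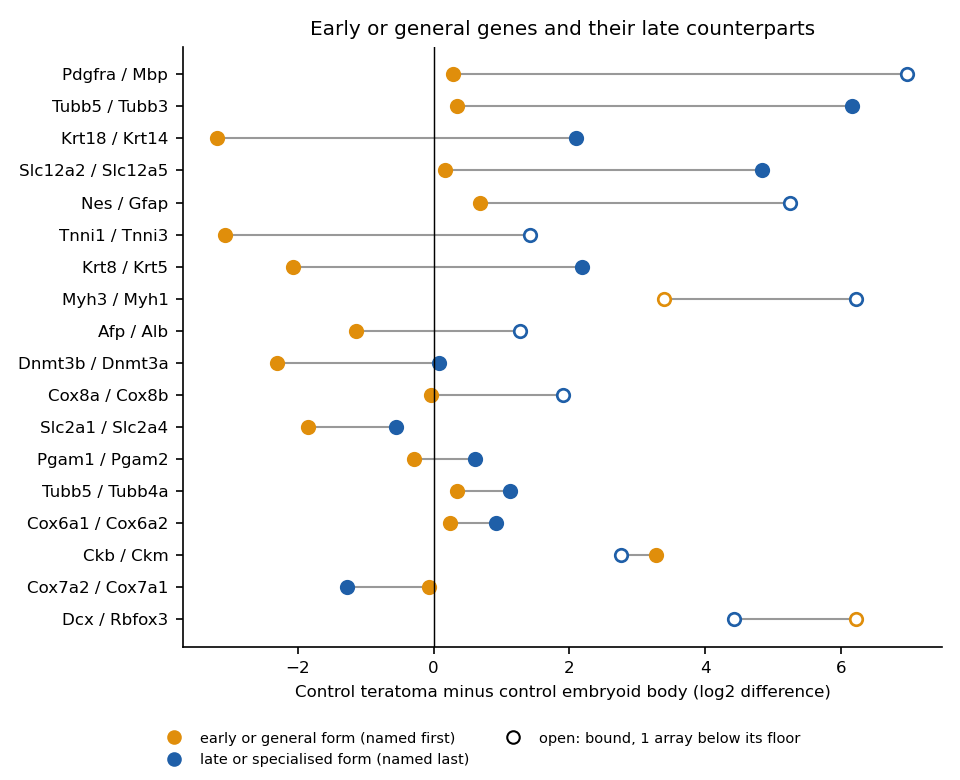
For each of the 18 measured pairs, the log2 difference of the early or general form (orange) and of the late or specialised form (blue), joined by a line; open circles are bounds. In 15 pairs the blue point lies to the right of the orange one, Myh3 with Myh1 by bounds alone, with Pdgfra at 0.29 and Mbp at least 6.98 in the widest pair. Mbp is shown by its brightest probe set, and its probe sets above the floor on both arrays gave smaller differences.

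The knockout arrays offer the same contrast in cells without Snai1. The pairs share no array, but the genotype differs, so the knockout pair is not a replicate. Of 12936 genes measured there, 2566 (19.8%) were higher and 2564 (19.8%) lower in the teratoma. Over the 12600 genes measured in both pairs, the differences correlated at 0.891 (Pearson) and 0.867 (Spearman) across genes, which are not independent replicates. Of 2077 genes higher in the control teratoma, 1786 were also higher in the knockout one, 86.0% of the control list and 71.3% of the knockout list. Of 2433 lower genes, 1751 were also lower, 72.0% and 68.4% of the lists. Opposite calls were few: 7 of the higher and 11 of the lower genes.

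Both teratomas lay at least 2-fold above both embryoid bodies for 1655 of 13292 genes (12.5%) and at least 2-fold below for 1547 (11.6%). Neuronal, myeloid and division genes mostly belonged to these: 15 of 17 neuronal cytoskeleton genes and 17 of 22 myeloid genes were above, and 18 of 21 mitosis genes and 17 of 22 replication genes below. Of the primitive blood list 4 of 13 were below, and of the visceral endoderm list 11 of 22. In the control pair alone, 10 and 17 of these lists were lower. For some members the knockout embryoid body stood lower than the control one. Nfe2 read 8.92 in the control embryoid body and 4.38 in the knockout one, and Rbp4 12.08 and 8.88. For other members the knockout embryoid body stood higher, as for Sox17 (8.92 and 10.15) and Gata4 (8.52 and 8.87). The platelet list had a median of -0.86 in the control pair and 1.66 in the knockout pair. The median absolute difference between sample kinds was 0.70 in control cells, and between genotypes 0.20 in embryoid bodies and 0.21 in teratomas.

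**Figure D5:**
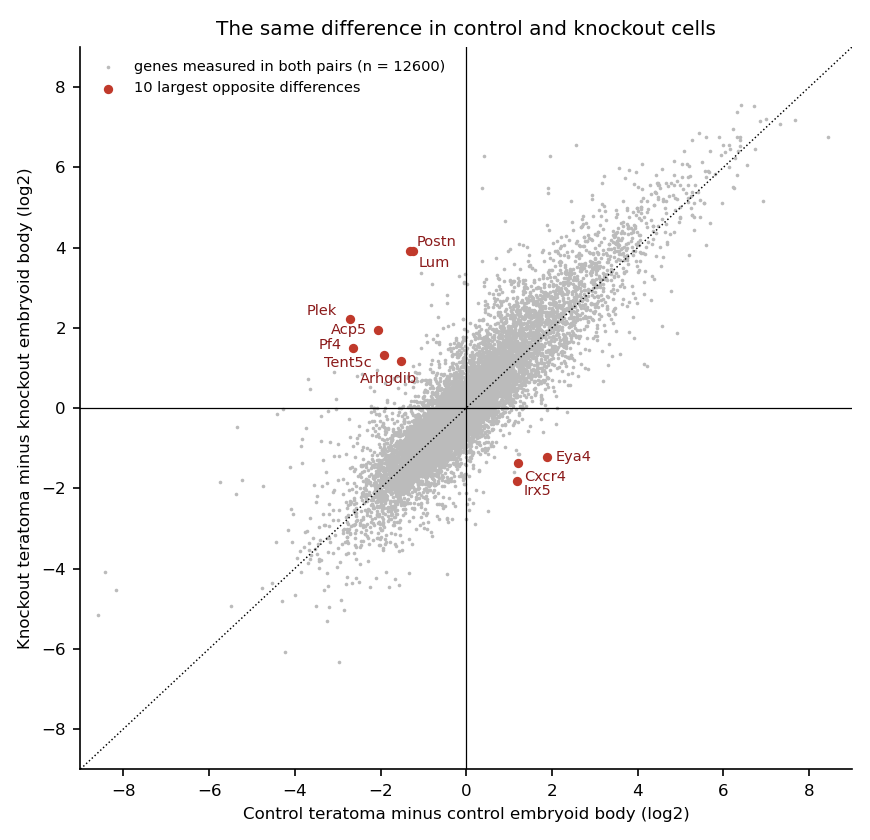
Each point is 1 of 12600 genes, with its log2 difference between teratoma and embryoid body in control cells on the x axis and in knockout cells on the y axis, bounds entered at their bound; the dotted line marks equal differences and red points the 10 largest opposite ones. Most points follow the line, and Postn and Lum stand out at about -1.3 on the x axis and 3.92 on the y axis.

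Sex-linked genes were read because the hosts were male. The Y-linked genes Eif2s3y and Uty were above the floor on both control arrays, at 8.02 and 7.70, and at 5.71 and 5.32. Kdm5d was below the floor in the control embryoid body (2.75) and at 6.46 in the control teratoma. Xist, the noncoding RNA that silences an X chromosome, was 4.88-fold higher in the control teratoma (5.03 and 7.32). The part of host cells in these values was not tested.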

How the data were processed

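The authors deposited log2 values per probe set, made with the affy package and RMA per the submitters' processing notes; for versions, the chip definition and joint normalisation of the 4 arrays, the answer is not given in the sources used here. The raw scans were not analysed here.

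Of 45101 probe sets, 64 were controls, 34945 named 1 gene, 932 several and 9160 none; 34741 of the 1-gene sets matched a RefSeq table (GRCm38.p6). A gene with several probe sets was read from the one brightest on average across the 4 arrays. Values below an array's floor (the median, 50th percentile, of its non-control probe sets) were set to it. Calls were made at a log2 difference of 1. RMA compresses small signals, so folds of dim genes may be understated.

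Genes were named by rule: the Snail family, the 20 largest differences and 15 bounds each way, up to 6 members per list (all in lists of at most 8), pair genes, and the 10 largest shared or opposite differences between control and knockout pairs. The members and lists were chosen with earlier results of these data known. Some list members below or near the floor were named in addition, after their values were seen. Symbols of 5 list members were updated through synonyms. The steps were tested on simulated data. Computation used pandas and numpy.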

Additional observations from a re-analysis of the deposited data

Results flagged for a closer look

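The control pair and the knockout pair gave opposite calls, teratoma minus embryoid body on the log2 scale, for 7 genes higher and 11 lower in control cells. The 10 with the largest opposite differences are given here. The difference was not tested, since each value rests on 2 arrays. The matrix genes Postn and Lum differed by -1.30 and -1.25 in control cells and by 3.92 and 3.92 in knockout cells. Their control embryoid body values were 11.85 and 11.65, against 5.91 and 5.29 in the knockout embryoid body, while both teratomas lay between 9.21 and 10.55.

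Blood-cell genes made up several of the others. Plek, a platelet and leukocyte signalling protein, differed by -2.72 in control and 2.21 in knockout cells, Pf4 by -2.65 and 1.501, Arhgdib by -1.53 and 1.18, and Acp5, an acid phosphatase of osteoclasts and macrophages, by -2.07 and 1.95. Tent5c differed by -1.91 and 1.33. The median of the platelet list was -0.86 in the control pair and 1.66 in the knockout pair. In the opposite direction were 3 developmental genes: Cxcr4 at 1.21 and -1.36, Irx5 at 1.19 and -1.81, and Eya4 at 1.88 and -1.22. With 1 array a group, none of these has a replicate check.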

How the results depend on the processing

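Counts moved most with the fold threshold and the centring. At 1.5-fold 3030 genes were higher and 4324 lower, at 4-fold 966 and 424, and at 8-fold 423 and 94. Centring on the median gene left 1550 lower, and centring on ribosomal protein genes 1229. Under the other probe set, quantile and floor settings, higher counts ran from 1400 to 2559 and lower counts from 1929 to 2990, each within 1.5 times the main count. Named genes called at 2-fold went under it most often with the floor at the 65th percentile (43 of 400 with a value), the mean of the probe sets (39 of 425) and ribosomal centring (23 of 447). Their sign turned only with the probe set: Dlk1 was 0.78 without shared-sequence probe sets and with the most variable one, Pfkl 0.95 without shared-sequence probe sets, and Plet1 -0.18 with the most variable one. The median of Choroid plexus genes was -0.79 with the floor at the 65th percentile and -0.046 as a mean, and the median of Germ cell genes 0.0079 without a floor; no other list median of 2-fold or more changed sign. The cause was not tested. No paired analysis was possible because each group has 1 array. No replicate could be left out for the same reason. Signal over background limits the genes below the floor on both arrays, 5237 of 18193, whose levels have no order here.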
